A study of Mus musculus with 2 samples.

Results

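Checkpoint receptors and their ligands set how strongly a T or NK cell answers the cell it touches. The 10 genes described here were taken by symbol, 10 of the 31253 genes counted in each library, and all 10 had unique molecular identifiers (UMIs, each marking 1 captured mRNA molecule) in both libraries. They are the 6 lymphocyte receptors Pdcd1 (PD-1), Ctla4, Icos, Lag3, Havcr2 (Tim-3) and Tigit, and the 4 ligands Cd274 (PD-L1), Pdcd1lg2 (PD-L2), Cd80 and Cd86. The cells were Cd45+ immune cells from B16-F10 tumors, a transplanted mouse melanoma line, grown under the right flank skin of C57BL/6 mice from 200000 injected cells and taken at day 10. One library came from Irg1+/+ mice and the other from Irg1-/- mice, each a pool of tumor pieces of 100 mm3 from 3 mice, with 6000 cells sorted. Irg1, listed as Acod1, makes itaconate in activated myeloid cells, and the labels give no other treatment. Both groups received the same tumor line, so the genotype is that of the host.

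PD-1 lowers T cell receptor signaling when it binds PD-L1 or PD-L2 on an antigen-presenting or tumor cell. CTLA-4 competes with the activating receptor CD28 for CD80 and CD86, and regulatory T cells carry much of it, whereas ICOS is a costimulatory relative of CD28 and CTLA-4. LAG-3, Tim-3 and TIGIT restrain lymphocytes through other ligands, among them MHC class II for LAG-3, galectin-9 for Tim-3 and the nectin-like protein PVR for TIGIT. In tumors, receptors of this kind accumulate on T cells that keep meeting antigen, and interferon raises PD-L1 on many myeloid cells.

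In 6284 Irg1+/+ and 5794 Irg1-/- cells with less than 10% mitochondrial UMIs, the receptors other than Havcr2, which myeloid cells shared, lay mainly in T cells, and each ligand was highest in mature dendritic cells (DCs) except Cd274, which neutrophils led, in both libraries. Between the libraries, CD8 T cells of the Irg1-/- library held more Pdcd1 and Havcr2 and less Icos, and NK cells held less Icos. Among CD8 T cells that were not cycling, Pdcd1 was lower instead, and the Icos difference was within counting error. Lower Icos was not particular to lymphocytes. Of 17 classes with at least 20 Icos UMIs, 11 were lower beyond counting error, mature DCs and macrophage classes included, and 1 was higher. Mature DCs of the Irg1-/- library held more Cd274 and Pdcd1lg2 and less Cd86. Cd80 and Cd86 were lower in classical and interferon-activated monocytes and in cDC2, whereas in nonclassical monocytes the intervals of the 2 libraries overlapped. These are differences between 2 libraries: with 1 library per genotype there is no replicate and no test, and all intervals below are 95% intervals that cover counting error only.

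Depth was close in the 2 libraries, with a median of 4528 UMIs per kept cell in the Irg1+/+ library and 4594.5 in the Irg1-/- library, and 42105693 and 35307041 UMIs in all. The 2 libraries shared 36 cell barcodes, and leaving these cells out moved none of 54 values recomputed without them (the sums, the members in the 9 main classes, the CD8 T co-detection and the ligand share in mature DCs) beyond its counting interval. The genotype could not be read from Acod1, which stood at 87.8 CPM (counts, here UMIs, per 1000000 UMIs of the cells taken) in the Irg1+/+ library and at 108 CPM in the other, a log2 ratio of 0.30 (0.23 to 0.36). By class it went both ways: it was higher in Irg1-/- macrophages (98.5 against 130.1 CPM, 0.40, 0.28 to 0.52) and lower in neutrophils, its highest class (2101 against 1709 CPM, -0.30, -0.52 to -0.075), eosinophils (974 against 493 CPM, -0.99) and interferon-activated monocytes (337 against 245 CPM, -0.46). Neutrophils numbered 65 and 172, and their part in the sum over all cells was not tested. Counts were per gene, so reads from a deleted part of Acod1 and from the rest were not separated, and each direction below rests on the labels, from the library labelled Irg1+/+ to the library labelled Irg1-/-.

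Cells were put into classes by the density of marker UMIs, and none of the 10 genes was a marker. T cells numbered 1353 (21.5% of kept cells) in the Irg1+/+ library and 780 (13.5%) in the Irg1-/- library, and NK cells 323 (5.14%) and 610 (10.5%). The T cells comprised 476 and 280 CD8 T cells, 241 and 105 regulatory T cells, and 134 and 95 conventional CD4 T cells, with the rest gamma delta or unassigned by these markers. Mature DCs, which carry Ccr7, Fscn1 and Ccl22, numbered 388 and 339, cDC1 243 and 165, cDC2 210 and 296, macrophages 1108 and 909, and monocytes 796 and 1157. A share of 25.2% and 19.5% of cells stayed without a class, cells with markers of several classes included. Melanocytes, which a Cd45+ sort should leave out, made up a class of 51 and 8 cells by 4 markers. The CPM of a class is a share of the RNA of its cells, so a level says nothing about how many such cells the tumor held.

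Both PD-1 ligand genes lie side by side on chromosome 19, Cd274 at chr19:29367455-29388095 and Pdcd1lg2 at chr19:29410919-29471161 on the plus strand, 22.8 kb apart (GRCm38, GENCODE annotation). An antisense gene overlaps exons of Cd274, and strand use in counting is not given in the sources used here. Ctla4 (chr1:60887000-60915832, plus strand) and Icos (chr1:60977927-61000320, plus strand) are 62.1 kb apart. Cd80 (chr16:38455561-38496335, plus strand) and Cd86 (chr16:36603869-36666081, minus strand) are 1789 kb apart. The others are Pdcd1 at chr1:94038305-94052553 (minus strand), Lag3 at chr6:124904361-124911705 (minus strand), Havcr2 at chr11:46454935-46481255 (plus strand) and Tigit at chr16:43648867-43664146 (minus strand).

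Promoters, from 250 bases before to 50 bases after the start, matched 7 of the 10 genes in RefSeq (GRCm38.p6); Lag3, Cd86 and Icos did not match. The promoters of 3 ligands are shown because Cd274 and Pdcd1lg2 were higher and Cd80 was not in the same mature DCs. Both strands were searched for the interferon-gamma element GAS (TTCNNNGAA), the interferon element ISRE (GAAA, any 2 bases, then GAAA) and the NF-kB consensus, whose matches are in capitals.
Cd274 (chr19:29367188-29367487, plus strand): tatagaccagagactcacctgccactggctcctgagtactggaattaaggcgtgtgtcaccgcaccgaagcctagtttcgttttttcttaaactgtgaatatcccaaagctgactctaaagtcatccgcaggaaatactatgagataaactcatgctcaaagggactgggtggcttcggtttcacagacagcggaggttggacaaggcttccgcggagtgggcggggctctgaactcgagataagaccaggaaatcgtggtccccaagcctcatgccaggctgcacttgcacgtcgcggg
Pdcd1lg2 (chr19:29410669-29410968, plus strand): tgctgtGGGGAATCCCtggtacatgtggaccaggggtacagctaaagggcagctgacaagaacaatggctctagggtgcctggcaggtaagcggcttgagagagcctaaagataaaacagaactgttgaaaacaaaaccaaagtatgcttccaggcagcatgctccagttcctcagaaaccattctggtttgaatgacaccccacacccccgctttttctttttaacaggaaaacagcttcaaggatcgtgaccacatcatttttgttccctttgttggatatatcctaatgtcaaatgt
Cd80 (chr16:38458683-38458982, plus strand): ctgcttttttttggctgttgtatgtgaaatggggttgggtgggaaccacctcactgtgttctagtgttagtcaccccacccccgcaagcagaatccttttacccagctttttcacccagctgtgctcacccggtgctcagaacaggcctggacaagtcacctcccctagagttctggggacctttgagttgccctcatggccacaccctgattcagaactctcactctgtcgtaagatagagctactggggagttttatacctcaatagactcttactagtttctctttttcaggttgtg

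The GAS letters stood in 8.30% of 32851 promoters of this length, the ISRE letters in 3.44% and the NF-kB consensus in 8.46%. None of the 7 matched promoters held the GAS or ISRE letters. One, Pdcd1lg2, held the NF-kB consensus, at -244 to -235 from the start. The short NFAT core GGAAA, found in 61.3% of promoters, stood in those of Pdcd1, Ctla4, Tigit, Cd274 and Pdcd1lg2 and not in those of Havcr2 and Cd80. A match is only a match of letters, and no match says only that these letters are not in this window.

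Pdcd1, the PD-1 gene, was highest in CD8 T cells of both libraries. Its level there was 372 CPM (353 to 391) in the Irg1+/+ library and 436 CPM (412 to 461) in the Irg1-/- library. The intervals were apart, with the Irg1-/- library higher by a log2 ratio of 0.23 (0.12 to 0.34). Unassigned T cells came next, at 283 and 307 CPM, clear of CD8 T cells in both libraries, and conventional CD4 T cells followed at 227 and 198 CPM. CD8 T cells held 40.1% of all Pdcd1 UMIs in the Irg1+/+ library and 46.4% in the Irg1-/- library. At least 1 Pdcd1 UMI was found in 64.1% and 67.5% of CD8 T cells, whose median depth was 5431 and 7899 UMIs, and in 41.3% and 44.7% once each cell was thinned to 2000 UMIs. Monocytes, which should lack the gene, had a UMI in 8.04% and 7.69% of cells at median depths of 5074 and 5375 UMIs, at 15.5 and 15.2 CPM.

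Cycling cells, with at least 2 UMIs of Mki67, Top2a, Birc5 and Ccnb2 together, made up 50.2% of Irg1+/+ and 61.8% of Irg1-/- CD8 T cells. This minimum was not scaled to depth, and the median depth of these cells was 5431 and 7899 UMIs. Together the 4 genes stood at 1890.1 and 1956 CPM, and the part of depth in the 2 shares was not tested. The Pdcd1 ratio ran in opposite directions in the 2 kinds of cell. In cycling CD8 T cells Pdcd1 was at 395 and 471 CPM, a log2 ratio of 0.25. In the others it was at 299.6 and 224 CPM, a log2 ratio of -0.42 (-0.79 to -0.071). The higher Pdcd1 level of Irg1-/- CD8 T cells was thus found in the cycling cells alone, and the part of the cycling share in it was not tested. In the same gate the 5 T markers summed to 5099 and 5492 CPM, and RNA of melanocyte markers to 162 and 40.7 CPM.

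Havcr2, the Tim-3 gene, marked CD8 T cells and myeloid cells alike. It stood at 268 CPM in Irg1+/+ CD8 T cells and at 332 CPM in Irg1-/- CD8 T cells, a log2 ratio of 0.31 (0.18 to 0.44). The direction was the same in cycling cells (299 and 349.6 CPM) and in the others (168 and 226 CPM, 0.44). After thinning, 28.1% and 34.6% of CD8 T cells had a Havcr2 UMI. Cross-presenting cDC1 stood at 237 and 220.5 CPM, and nonclassical monocytes had 211 and 179 CPM. In the Irg1+/+ library the cDC1 interval overlapped those of CD8 T cells and of nonclassical monocytes, whose own intervals were apart, and in the Irg1-/- library CD8 T cells stood clear of cDC1. Macrophages held 22.2% and 22.6% of all Havcr2 UMIs, more than the 18.2% and 19.5% in CD8 T cells. Among macrophage states the Irg1-/- level was higher in hypoxic cells (89.0 against 122 CPM, 0.45, 0.22 to 0.68), whereas in classical monocytes it was lower (165 against 125 CPM, -0.40).

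Lag3 had few molecules, and plasmacytoid DCs (pDCs) rather than T cells had its highest level. It stood at 191 CPM (145 to 248) in Irg1+/+ pDCs and at 143 CPM (101 to 197) in Irg1-/- pDCs, from 57 and 37 UMIs. Regulatory T cells followed at 94.0 and 96.4 CPM, clear of pDCs in the Irg1+/+ library only. In CD8 T cells Lag3 was at 73.8 and 89.0 CPM, a log2 ratio of 0.27 (0.021 to 0.52), and the share of cells with a UMI was 33.2% and 41.1%, or 10.7% and 16.3% after thinning. Within cycling cells (0.27, -0.0012 to 0.55) and within the others (0.17, -0.52 to 0.80) the intervals included equal levels. NK cells had 11.5 and 10.8 CPM, against 5.55 and 6.47 CPM in monocytes.

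**Figure D1:**
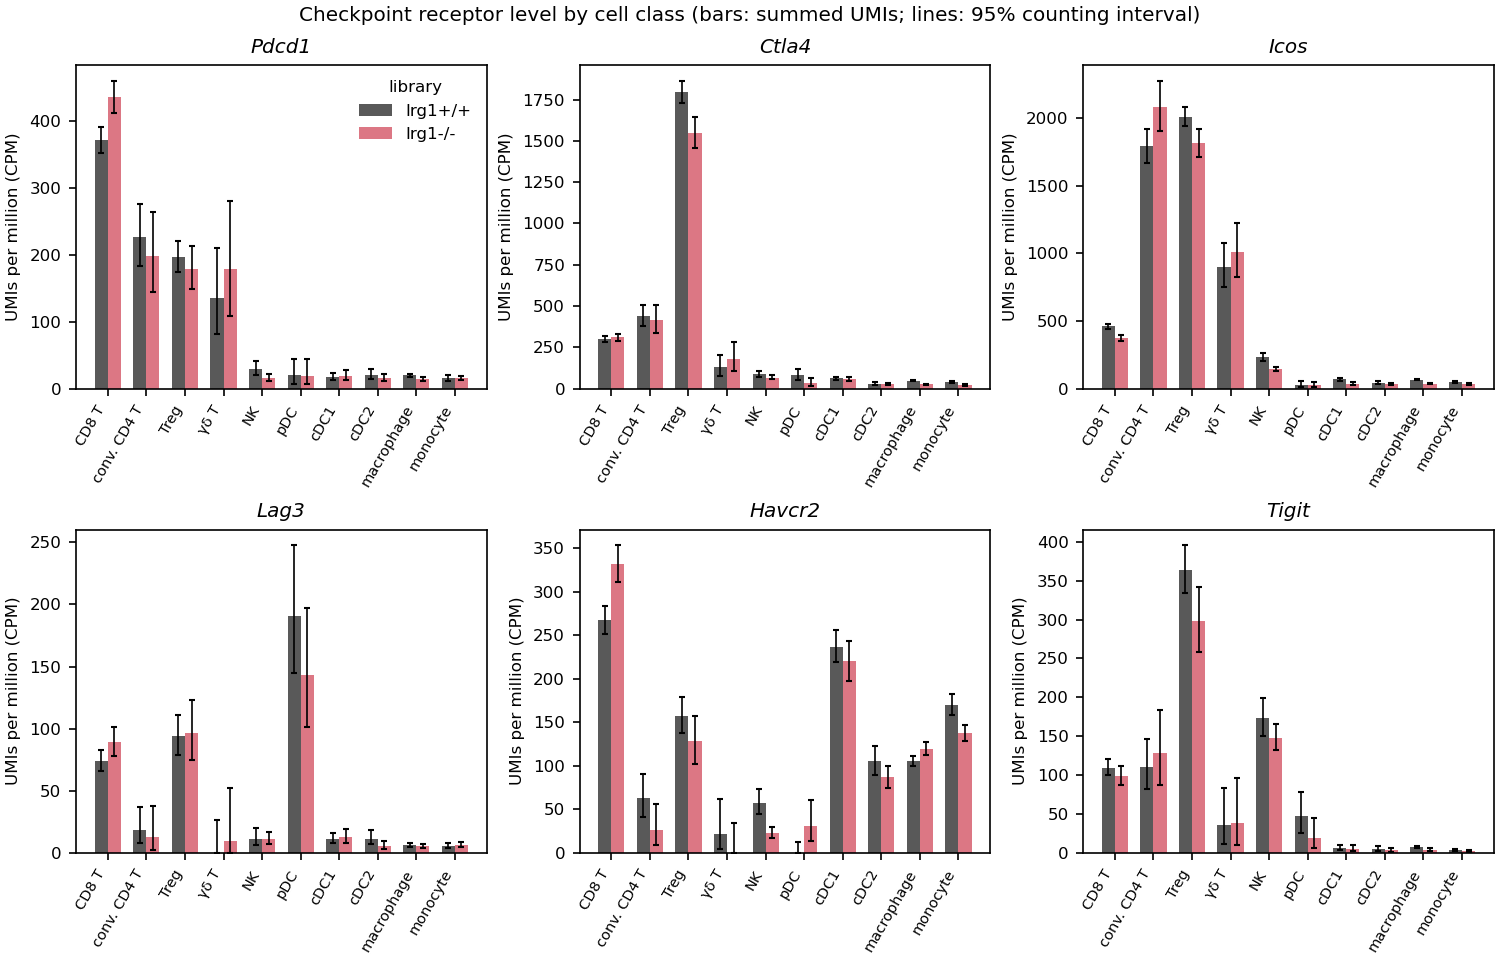
Levels of the 6 receptors by cell class (bars, CPM on linear axes that start at 0), with Irg1+/+ in grey, Irg1-/- in red and lines for the 95% counting intervals. CD8 T cells lead for Pdcd1 (372 and 436 CPM), regulatory T cells for Ctla4 (1795 and 1549.6 CPM) and Tigit (364 and 298 CPM), and pDCs for Lag3 (191 and 143 CPM).

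Ctla4 was the mark of regulatory T cells. Its level there was 1795 CPM (1728 to 1865) in the Irg1+/+ library and 1549.6 CPM (1457 to 1646) in the Irg1-/- library. The intervals were apart, and the Irg1-/- level was lower by a log2 ratio of -0.21 (-0.32 to -0.11). Conventional CD4 T cells (438 and 413 CPM) and CD8 T cells (299 and 309.6 CPM) had much less, and their libraries differed by less than counting error. After thinning, 89.9% and 92.9% of regulatory T cells still had a Ctla4 UMI. In regulatory T cells that were not cycling, the levels were 2264 and 2108 CPM, a difference within counting error (-0.10, -0.27 to 0.058). In cycling ones they were 1482 and 1321 CPM, with the Irg1-/- library lower (-0.17, -0.31 to -0.028).

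Icos, the costimulatory receptor, was high in both CD4 classes. Regulatory T cells had 2011 and 1815 CPM, and conventional CD4 T cells had 1792 and 2083 CPM. Regulatory T cells led in the Irg1+/+ library, and in the Irg1-/- library the 2 classes changed places with overlapping intervals. In CD8 T cells Icos was lower in the Irg1-/- library, at 459.9 against 373 CPM (-0.30, -0.41 to -0.19), the opposite of Pdcd1 and Havcr2 in the same cells. In cycling cells it was at 371 and 325 CPM (-0.19, -0.32 to -0.056), and in the others at 745 and 666 CPM, within counting error (-0.16, -0.37 to 0.045).

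Tigit, whose protein competes with the activating receptor CD226 for PVR, led in regulatory T cells at 364 and 298 CPM, a log2 ratio of -0.29 (-0.53 to -0.053). In regulatory T cells that were not cycling it was at 471 and 454 CPM, within counting error (-0.045, -0.41 to 0.30). In cycling ones it was at 293 and 234 CPM (-0.32, -0.66 to -0.00018). Tigit was the receptor with the clearest NK expression: 173 and 148 CPM, a UMI in 38.7% and 33.9% of NK cells at median depths of 2891 and 2686 UMIs, against 3.24 and 2.06 CPM in monocytes. With NK cells more frequent in the Irg1-/- library, they held 24.4% of its Tigit UMIs, against 9.42% in the Irg1+/+ library. The difference in NK level itself, -0.23 (-0.49 to 0.04), was within counting error.

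The receptors were next compared between libraries by a size of 1.5-fold, among genes with at least 20 UMIs in the class over both libraries. In CD8 T cells 0 of 6 receptors passed it, where 11.1% of all genes did. In regulatory T cells 0 of 6 did, against 16.9% of genes, and in conventional CD4 T cells 1 of 5, against 24.5%, which was Havcr2 at 62.5 and 25.8 CPM from 27 and 6 UMIs with an interval that included equal levels. In NK cells 3 of 6 were lower by that size, against 14.0% of genes past it in either direction. The medians of the receptors' log2 ratios were 0.14 in CD8 T, -0.18 in regulatory T, -0.079 in conventional CD4 T and -0.54 in NK cells, where those of all genes were -0.041, -0.028, -0.0093 and -0.026. Summed over the 6 receptors, CD8 T cells differed by 0.052 (-0.0036 to 0.11), or by -0.12 (-0.16 to -0.081) in the graph clusters where CD8 T cells were the most frequent class (458 of 1131 and 247 of 483 gated cells, so mixed T cells), conventional CD4 T cells by 0.11 (-0.028 to 0.25), or by -0.059 as a mean over cells, and regulatory T cells by -0.18 (-0.25 to -0.12, 4619 against 4066 CPM), or by -0.10 (-0.20 to 0.00014) without cycling cells.

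The NK receptors that passed were Icos, Pdcd1 and Havcr2. Icos was at 234 CPM in Irg1+/+ and 144 CPM in Irg1-/- NK cells, a log2 ratio of -0.70 (-0.94 to -0.45), and after thinning 32.5% and 21.5% of NK cells had a UMI. Pdcd1 was at 29.1 and 15.8 CPM from 33 and 32 UMIs (-0.89, -1.63 to -0.14), no higher in either library than the 39.2 and 32.0 CPM of mature DCs. Havcr2 was at 57.4 and 22.7 CPM from 65 and 46 UMIs (-1.34, -1.92 to -0.77). The Havcr2 difference was smaller under some alternatives: it was -0.32 as a mean over cells, -0.14 after thinning and -0.51 (-1.28 to 0.30) without cells holding a Cd3 UMI. In the 46 and 57 cycling NK cells it was -2.53 (-3.82 to -1.51), from 38 and 9 UMIs, and in the others -0.49 (-1.24 to 0.29). Without cells holding a Cd3 UMI, the Icos ratio was -0.64.

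UMIs of T cell markers were found in every class, and in most classes outside T cells their level was lower in the Irg1-/- library. In monocytes the 5 T markers summed to 314 and 255 CPM, and in eosinophils, the exception, to 273 and 289 CPM. In NK cells the 5 T markers, all with UMIs, summed to 528 CPM in the Irg1+/+ and 474 CPM in the Irg1-/- library, and the Cd8 genes to 65.4 and 38.9 CPM. The 8 macrophage markers stood at 969 and 963 CPM there, and the 6 NK markers at 3972 and 4311 CPM. In monocytes the 5 receptors other than Havcr2 summed to 108 and 79.7 CPM, and in B cells all 6 summed to 282 and 100.3 CPM from 45 and 17 UMIs. With the B cell level subtracted, the NK difference summed over 6 receptors went from -0.54 (-0.69 to -0.39, 593 against 409 CPM) to -0.011. With the monocyte level of the 5 receptors other than Havcr2 subtracted from the same sum, which left Havcr2 uncorrected, it was -0.56. The source of these UMIs was not tested, nor which of the 2 levels stands for free RNA in NK wells.

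Receptor UMIs were also found in macrophages, where Ctla4 was at 48.3 and 24.9 CPM (-0.95) and Icos at 64.2 and 35.5 CPM (-0.85). After thinning, 7.12% and 3.85% of macrophages had a Ctla4 UMI and 9.46% and 6.73% an Icos UMI. Monocytes had 36.8 and 21.8 CPM of Ctla4. Over the classes with at least 20 Icos UMIs, the Irg1-/- level was lower with an interval clear of equality in 11 of 17 and higher in 1 (conventional CD4 T). The share of T cells in the 2 libraries, 21.5% and 13.5%, moved with these values, and its part in them was not tested.

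Receptors met in the same cells most often in regulatory T cells. After thinning each cell to 2000 UMIs, at least 3 of the 6 receptors had a UMI in 63.6% of Irg1+/+ and 60.2% of Irg1-/- regulatory T cells, and in 25.5% and 25.5% of conventional CD4 T cells. CD8 T cells had 28.1% (23.9 to 32.5) and 35.8% (29.8 to 42.1), 7.69 percentage points more in the Irg1-/- library with intervals that overlapped. Without cycling cells these were 20.6% and 15.7%, so the direction turned, and in the mixed T cell clusters that CD8 T cells led they were 27.2% and 26.6%. With all UMIs of each cell the shares were 64.5% and 67.5%. The mean number of receptors found was 1.89 and 2.09 in CD8 T cells and 3.02 and 2.87 in regulatory T cells. In macrophages, in which most of these genes are near their lowest levels, 0.814% and 0.601% of cells had at least 3 receptors.

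**Figure D2:**
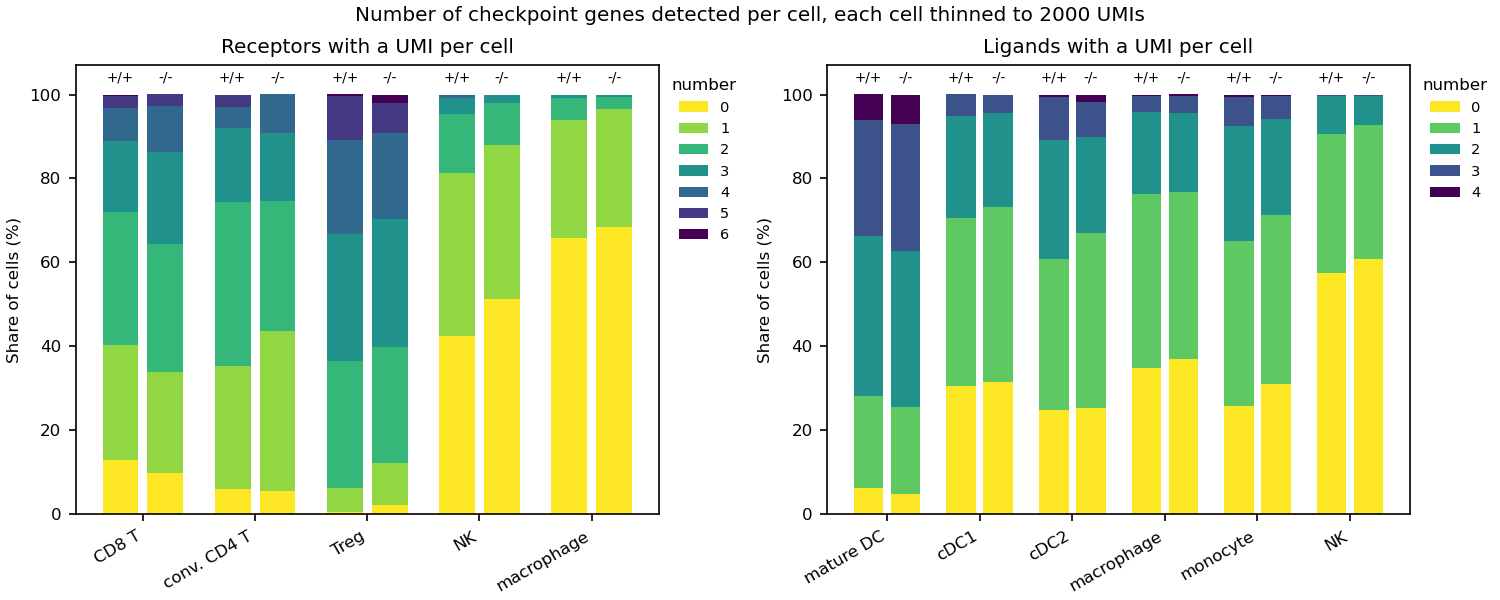
Stacked shares of cells (%) by the number of receptors (left, 0 to 6) or ligands (right, 0 to 4) found per cell at a fixed depth of 2000 UMIs, with the Irg1+/+ bar to the left of the Irg1-/- bar in each class. Regulatory T cells have the highest share with at least 3 receptors (63.6% and 60.2%), and mature DCs the highest share with at least 3 ligands (33.8% and 37.2%).

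Among the ligands, Cd274 was spread over all myeloid classes. Neutrophils had the highest level, 762 CPM (609.9 to 942) in the Irg1+/+ and 743 CPM (656 to 839) in the Irg1-/- library, from 65 and 172 cells. Mature DCs had 511 CPM (483 to 539.5) and 697 CPM (663 to 732), with a log2 ratio of 0.45 (0.34 to 0.56). In the Irg1-/- library they reached the level of neutrophils, and in the Irg1+/+ library they lay below it. After thinning, 59.2% of Irg1+/+ and 69.2% of Irg1-/- mature DCs had a Cd274 UMI, against 25.7% and 23.3% of NK cells, which showed 149 and 145 CPM.

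Cd274 did not move one way in all myeloid classes. MHC class II high macrophages had 269 and 357 CPM (0.41, 0.26 to 0.56), Mrc1 macrophages 155 and 188 CPM (0.27), and cDC2 199 and 238 CPM (0.26). Interferon-activated monocytes, marked by Cxcl9 and Cxcl10, had 406 and 436 CPM, and hypoxic macrophages had 270.3 and 251 CPM. Classical monocytes were lower in the Irg1-/- library, at 197 and 154 CPM (-0.36, -0.54 to -0.17). Of 21 classes with at least 20 UMIs, 5 were higher and 3 lower in the Irg1-/- library beyond counting error.

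Pdcd1lg2 was the ligand most restricted to mature DCs, which led clear of all other classes in both libraries. It was at 219.6 CPM (202 to 239) in Irg1+/+ and 302 CPM (280.3 to 326) in Irg1-/- mature DCs, a log2 ratio of 0.46 (0.30 to 0.63) close to that of its neighbor Cd274. After thinning, 29.4% and 38.5% of mature DCs had a UMI. In cDC2 it was at 84.6 and 87.1 CPM and in macrophages at 45.4 and 53.0 CPM (0.23). NK cells, which should lack it, showed 69.8 and 65.1 CPM, above macrophages, whereas classical monocytes showed 17.9 and 18.2 CPM and pDCs 10.1 and 11.6 CPM, below them. No single background level could thus be set for this gene.

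**Figure D3:**
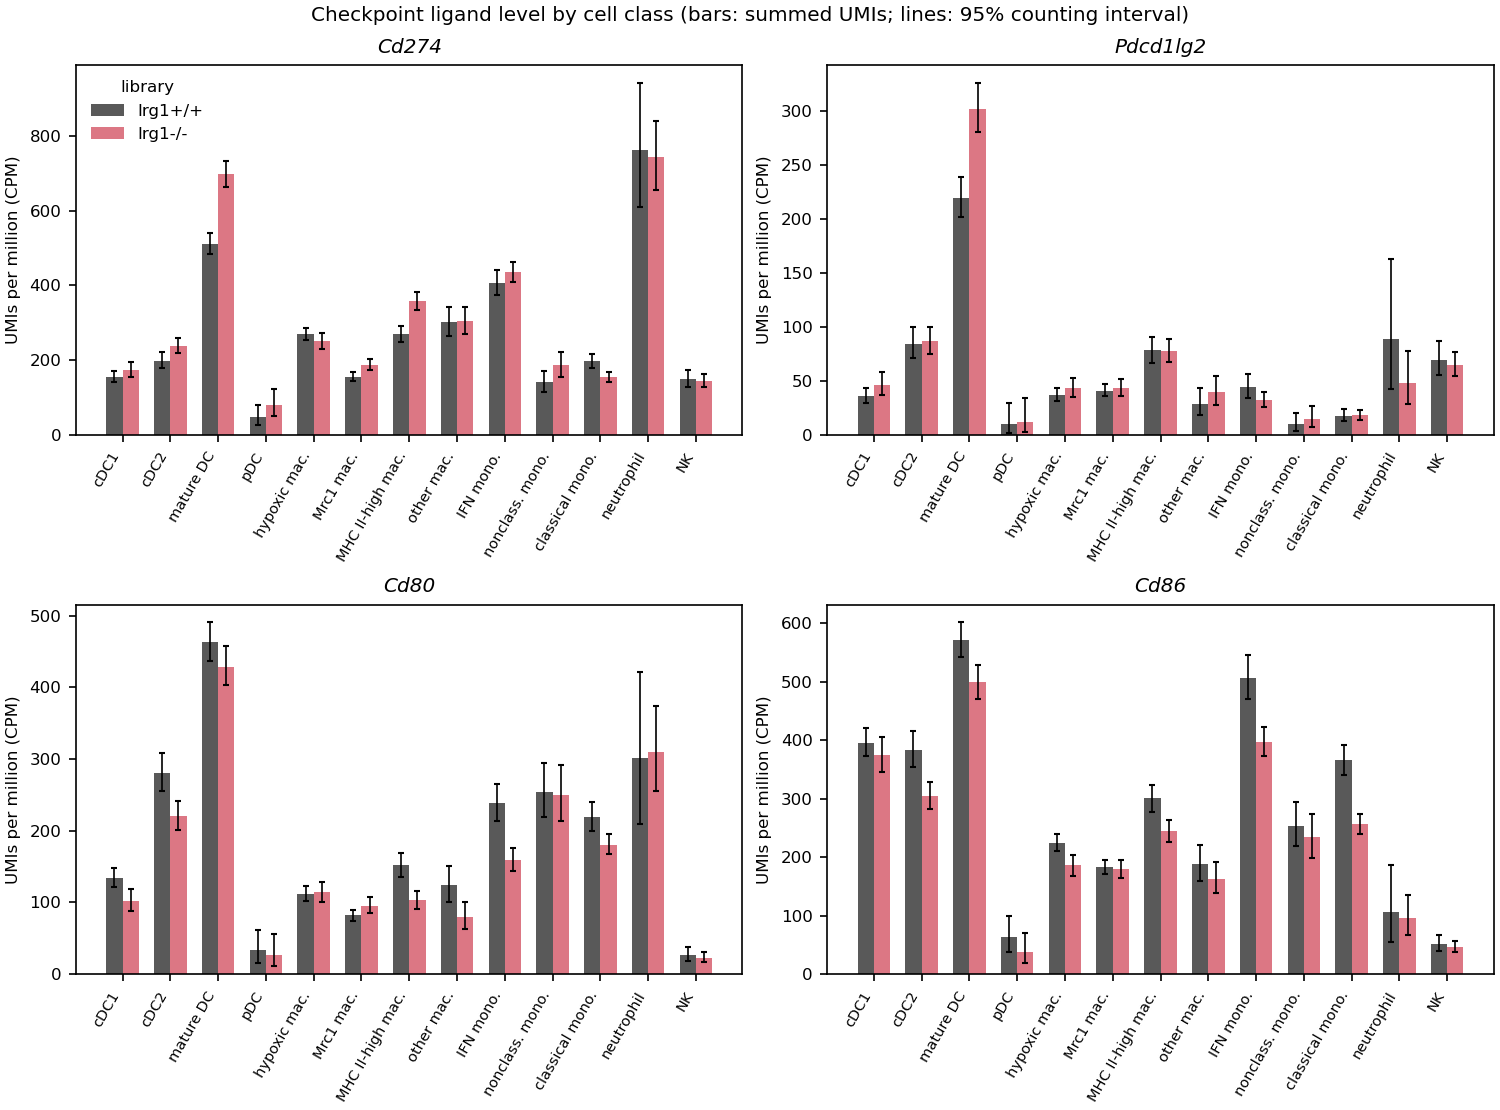
Levels of the 4 ligands by cell class (bars, CPM on linear axes that start at 0), with Irg1+/+ in grey, Irg1-/- in red and lines for the 95% counting intervals. Mature DCs stand at 511 and 697 CPM for Cd274 and at 219.6 and 302 CPM for Pdcd1lg2, with the Irg1-/- library higher for both.

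Cd80, which binds both CD28 and CTLA-4, was highest in mature DCs at 463 and 429 CPM, a difference (-0.11, -0.23 to 0.014) within counting error. Neutrophils (301 and 310.4 CPM) and eosinophils (312 and 197 CPM) had it too, and the eosinophil interval reached that of mature DCs in the Irg1+/+ library only. In interferon-activated monocytes it was lower in the Irg1-/- library, at 238 and 159 CPM (-0.58, -0.79 to -0.37). The same direction was found in MHC class II high macrophages (152 and 103 CPM, -0.56, -0.80 to -0.32), cDC1 (134 and 102 CPM, -0.39, -0.66 to -0.13) and cDC2 (281 and 220.1 CPM, -0.35, -0.54 to -0.16). Mrc1 macrophages were higher, at 81.8 and 95.3 CPM (0.22, 0.00067 to 0.44), as were CD8 T cells at the low level of 41.6 and 59.5 CPM. Of 17 classes with at least 20 UMIs, 6 were lower and 2 higher in the Irg1-/- library beyond counting error. Nonclassical monocytes had 254 and 250.1 CPM, with overlapping intervals. Thinned shares of monocytes with a UMI were 35.0% and 28.6%, against 5.36% and 3.96% of NK cells.

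Cd86, the other CD28 and CTLA-4 ligand, was abundant in mature DCs (572 and 499 CPM), interferon-activated monocytes (507 and 397 CPM), cDC1 (396 and 375 CPM) and cDC2 (384 and 304 CPM). Mature DCs overlapped interferon-activated monocytes in the Irg1+/+ library and stood clear in the Irg1-/- library. Classical monocytes had 366 and 257 CPM (-0.51, -0.65 to -0.37), with the Irg1-/- library lower, and mature DCs differed by -0.20 (-0.31 to -0.083). Nonclassical monocytes had 254 and 234 CPM, with overlapping intervals. Over 20 classes with at least 20 UMIs, the Irg1-/- level was below the Irg1+/+ level in 18, beyond counting error in 7, and above it beyond counting error in 0.

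By the 1.5-fold size, 0 of 4 ligands passed in cDC1 (13.6% of genes passed), in cDC2 (15.0%), in mature DCs (13.4%), in macrophages (10.9%) and in monocytes (11.0%). With 4 genes a class, a count of 0 is near these shares, and nothing is read from it. Their medians were 0.039 in cDC1, -0.15 in cDC2, 0.17 in mature DCs, 0.067 in macrophages and -0.24 in monocytes, against -0.0081, -0.025, -0.035, -0.034 and -0.019 for all genes. The 4 ligands summed to 1765 and 1928 CPM in mature DCs (0.13, 0.067 to 0.19) and to 907 and 772 CPM in monocytes (-0.23, -0.29 to -0.17). The sums differed by -0.051 (-0.16 to 0.054) in cDC1, -0.16 (-0.26 to -0.061) in cDC2 and 0.056 (0.0058 to 0.11) in macrophages, and -0.10 (-0.16 to -0.044) in the graph clusters that a macrophage state led, which held cells of other classes and of none.

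**Figure D4:**
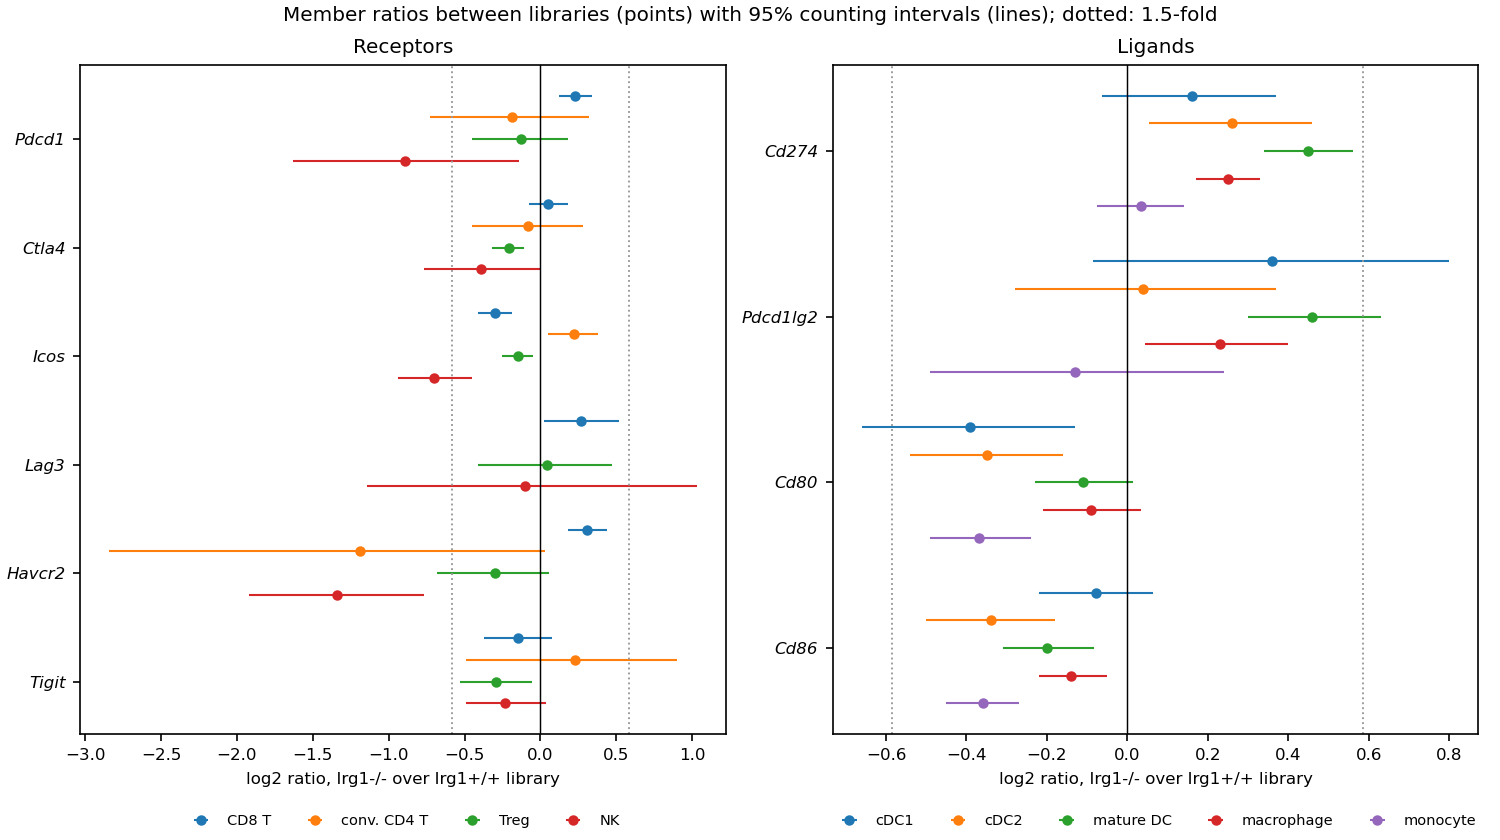
Log2 ratio of the Irg1-/- over the Irg1+/+ level for each receptor in CD8, conventional CD4 and regulatory T and NK cells and each ligand in cDC1, cDC2, mature DCs, all macrophages and all monocytes, with lines for 95% counting intervals and dotted lines at 1.5-fold. Of the receptors, Havcr2, Pdcd1 and Icos in NK cells (-1.34, -0.89 and -0.70) and Havcr2 in conventional CD4 T cells (-1.19) pass the dotted lines, and no ligand does in these 5 classes.

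Since Cd274 and Pdcd1lg2 were higher and Cd86 was lower in Irg1-/- mature DCs, with Cd80 within counting error, the PD-1 ligand share of the 4 ligands' UMIs was taken in each class, a measure chosen after the single values were seen. In mature DCs it was 41.4% (39.9 to 42.8) for Irg1+/+ and 51.9% (50.4 to 53.3) for Irg1-/- cells, a difference of 10.5 percentage points with intervals apart. In MHC class II high macrophages it was 43.4% and 55.6%, in cDC2 29.9% and 38.3%, in interferon-activated monocytes 37.6% and 45.7%, and in cDC1 26.5% and 31.5%, all with intervals apart. The Irg1-/- share was the higher in hypoxic macrophages (47.7% and 49.6%), Mrc1 macrophages (42.6% and 45.7%), other macrophages (51.5% and 58.8%), nonclassical monocytes (22.9% and 29.4%) and classical monocytes (26.9% and 28.3%) as well, but within overlapping intervals. This share does not depend on how the libraries were scaled. In mature DCs the summed level of the 6 class markers was 18274 CPM in the Irg1+/+ and 15263 CPM in the Irg1-/- library, and its part in the difference was not tested.

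**Figure D5:**
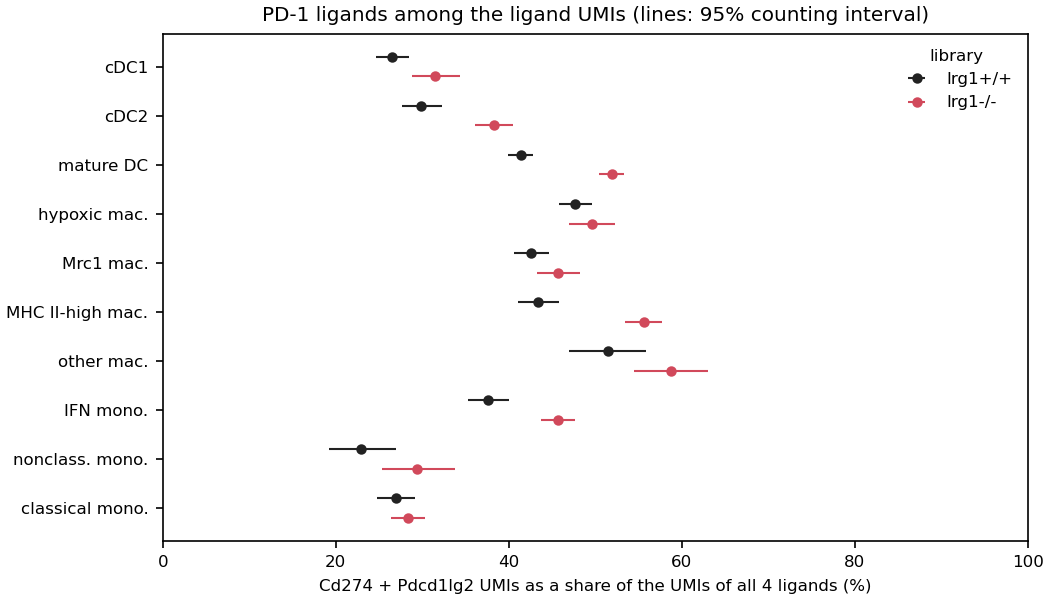
Share of the UMIs of the 4 ligands that came from Cd274 and Pdcd1lg2 (%, linear axis) in each DC, macrophage and monocyte class, with Irg1+/+ in black, Irg1-/- in red and 95% binomial intervals. The Irg1-/- point lies to the right in every class shown, from 41.4% to 51.9% in mature DCs and from 26.9% to 28.3% in classical monocytes.

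Ligands also met in the same mature DCs: after thinning, 33.8% of Irg1+/+ and 37.2% of Irg1-/- cells held at least 3 of the 4, against 10.9% and 10.1% of cDC2, 7.60% and 5.80% of monocytes, 4.17% and 4.45% of macrophages, and 0.357% and 0.417% of NK cells.

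The pattern of each gene over 40 points (20 classes in 2 libraries, so that points share libraries) was set beside those of 10625 genes by Pearson's r of log levels, as a description. Pdcd1 was most like Cd28 (0.90), Bcl11b (0.88) and Ndfip1 (0.87), and Ctla4 was most like Odc1 (0.92), Ccr8 (0.91) and Sdf4 (0.90). Icos was most like Lat, Lck and Spock2 (0.93 each), of which Lat and Lck carry the T cell receptor signal. Tigit had Leprotl1 (0.91), Adgrl1 (0.88) and Abhd8 (0.87), Havcr2 had Siva1 (0.81), Pgk1 (0.80) and Dbi (0.79), and Lag3 had Tacc2 (0.78), Srp19 (0.76) and Mettl4 (0.73). Among ligands, Cd86 was most like Cd83 (0.90), a DC maturation marker, Nuak2 (0.86) and Tbc1d9 (0.85), and Cd80 was most like Gm14548 (0.87), Nod2 (0.86) and Nampt (0.84). Cd274 had Klf6 (0.81), Ccrl2 (0.80) and Zfand3 (0.77), and Pdcd1lg2 had Rab8b (0.69), AA467197 (0.68) and Inpp5b (0.68). Between members, r was 0.90 for the neighbors Ctla4 and Icos, 0.77 for Cd80 and Cd86, 0.42 for the neighbors Cd274 and Pdcd1lg2, and -0.017 for Pdcd1 and Havcr2.

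The 25 other genes of these pathways were counted by the same 1.5-fold size. In CD8 T cells, where 11.1% of all genes passed, 0 of 20 with enough UMIs were higher and 1 lower, Cd226, the activating rival of Tigit, at 190.0 and 115 CPM (-0.73, -0.92 to -0.54). In NK cells 3 of 18 were higher and 1 lower, where 14.0% of all genes passed in either direction. Those higher were Icosl, the ICOS ligand (19.4 and 35.5 CPM), Pvr, the TIGIT and CD226 ligand (37.1 and 65.6 CPM), and Sirpa, a myeloid receptor for CD47 (31.8 and 49.3 CPM). In conventional CD4 T cells 1 of 15 was higher and 1 lower (24.5% of all genes passed), and in regulatory T cells 1 of 17 and 1 of 17 (16.9%). Cd28 itself, the activating receptor for CD80 and CD86, was highest in conventional CD4 T cells (560.2 and 572 CPM) and in CD8 T cells stood at 302 and 243 CPM (-0.31, -0.45 to -0.18).

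On the ligand side, where 10.9% to 15.0% of all genes passed, cDC1 had 1 of 20 higher and 0 lower, Lgals9, which encodes the Tim-3 ligand galectin-9 (82.7 and 163 CPM, 0.98, 0.73 to 1.24). In cDC2 1 of 19 was higher and 2 lower, with Cd226 at 24.6 and 60.6 CPM (1.29, 0.78 to 1.85) and Cd200r1, the receptor for CD200, at 94.1 and 61.5 CPM (-0.61). Mature DCs had 2 of 20 higher, Cd226 and Cd244a, both under 20 CPM and with intervals that included equal levels. There Pvr was at 219.6 and 318 CPM (0.53, 0.37 to 0.70), short of the 1.5-fold size. Macrophages had 3 of 23 higher, Cd226 (20.6 and 31.4 CPM), Nectin2 (1.37 and 3.25 CPM) and Vsig4, and 1 lower, Cd28 (26.2 and 15.4 CPM). Vsig4, a macrophage inhibitor of T cells, had 0 UMIs in Irg1+/+ and 62 UMIs in Irg1-/- macrophages. Against a limit of 3 counts for a count of 0, that was at least 28.7-fold higher if the 62 UMIs are taken without counting error. This limit is 1-sided, whereas the intervals elsewhere are 2-sided and reach further. Vsig4 met the minimum of 20 UMIs through the Irg1-/- library alone, so its place in that count was fixed by the minimum. Monocytes had 1 of 22 higher, Icosl (40.9 and 63.1 CPM, 0.62, 0.37 to 0.89), and 2 lower, Cd244a (143 and 93.6 CPM, -0.61) and Cd160 (6.70 and 3.97 CPM). Lgals9 was highest in interferon-activated monocytes (360.0 and 467 CPM), Cd200 in mature DCs (409.5 and 442 CPM) and Ceacam1 in nonclassical monocytes (256 and 315 CPM), and Vtcn1 had no UMI.

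T cell state genes gave the setting of the receptor levels. In CD8 T cells 3 of 16 were lower by 1.5-fold in the Irg1-/- library, where 11.1% of all genes passed in either direction. Tcf7, a factor of stem-like T cells, was at 126 and 72.8 CPM (-0.79, -1.04 to -0.56), and Slamf6, found on the same cells, at 50.9 and 27.4 CPM (-0.89, -1.29 to -0.51). Ikzf2 was lower too (193 and 93.4 CPM, -1.04). The exhaustion factor Tox stood at 219.7 and 194 CPM (-0.18), and the killing enzyme Gzmb at 2880.4 and 3774 CPM (0.39, 0.35 to 0.43). In NK cells 0 of 16 were higher and 4 lower (14.0% of all genes passed), among them Tcf7 (303 and 181 CPM, -0.74). In conventional CD4 T cells Gzmb was higher (512 and 865 CPM), and 3 of 15 were lower, Tox, Tnfrsf4 and Ccr7, near the 24.5% of all genes that passed. Regulatory T cells had 1 of 16 higher, Slamf6 (66.9 and 102 CPM).

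Of 9 genes that induce the ligands, Irf1, the interferon factor that drives Cd274, was the one that passed in myeloid classes. It was at 298 and 617 CPM in cDC1 (1.05, 0.92 to 1.18) and at 492 and 1043 CPM in cDC2 (1.08, 0.97 to 1.20), 1 of 9 in each class, near the 13.6% and 15.0% of all genes that passed. In mature DCs Irf1 was at 532 and 735 CPM (0.46, 0.36 to 0.57), beside Nfkb1 at 541 and 487 CPM (-0.15). In mature DCs, where 13.4% of all genes passed, and in macrophages, where 10.9% did, 0 of 9 passed. Macrophages had Irf1 at 471 and 690.4 CPM (0.55). In conventional CD4 T cells 2 of 9 were higher, Irf1 (516 and 779 CPM) and Irf8 (113 and 224 CPM), near the 24.5% of all genes that passed in that class.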

How the data were processed

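Both libraries were BD Rhapsody whole-transcriptome libraries. The deposited values were raw UMI counts per gene and cell, which the authors made from reads trimmed with fastp, with a UMI-tools barcode list and STAR alignment to Ensembl release 100 (GRCm38, per the labels). Gene and cell names in the deposited tables are other, non-numeric columns. Cells with over 200 genes and less than 10% mitochondrial UMIs were kept, which removed 124 of 6408 and 102 of 5896 cells. No doublet caller removed cells, and cells with T or NK markers beside myeloid or tumor markers stayed without a class (3.71% and 3.62%). The members, lists and gates were chosen with earlier results of these data known.

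Classes were gated on marker UMIs per 10000 UMIs of the cell, such as 15 for T cells (at least 4 UMIs), 10 for NK cells (at least 3) and 40 for mature DCs (at least 8). These minimums were set on the marker densities of these cells, and 46 T, 23 NK, 11 mature DC, 169 macrophage and 196 monocyte cells lay within 20% above them. The named genes were the 10 members, the 25 pathway, 16 T cell state and 9 inducer genes past 1.5-fold or highest in a role, and the 3 genes most like each member. Others were named after their values were seen. Results for some genes of the T cell state and inducer lists are not reported here.

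Levels have exact Poisson intervals, shares Clopper-Pearson intervals and ratios exact conditional binomial intervals at 95%, with 0.5 UMIs added to each sum for the ratio. The ratio and its interval were tested on simulated counts. Clustering used scanpy 1.11.5 and intervals scipy 1.17.1 under Python 3.11.15, with edgeR 4.0.16 in R 4.3.3 for TMM factors only. Alternatives changed the mitochondrial limit, the minimum UMIs, the gates, clusters, doublets, cycling cells, shared barcodes, thinning, scaling, pseudocount, fold size and free RNA level.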

Additional observations from a re-analysis of the deposited data

Results flagged for a closer look

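For 6 of the 10 genes the libraries differed in opposite directions in 2 cell classes, with counting intervals on either side of equal levels. The same rule was not applied to all genes, so nothing is read from this count. The classes were picked as the extremes for each gene, and the differences between classes were not tested. The log2 ratio of Pdcd1 was 0.23 in CD8 T cells and -0.89 in NK cells. In CD8 T cells that were not cycling it was -0.42 (-0.79 to -0.071). The NK level of Pdcd1 was no higher than that of mature DCs. Icos was at 0.22 in conventional CD4 T cells and at -1.41 in hypoxic macrophages, a class in which its UMIs stand near the level of other cells that should lack it. For Havcr2 the values were 0.45 in hypoxic macrophages and -1.34 in NK cells. The NK value of Havcr2 was -0.49 (-1.24 to 0.29) in NK cells that were not cycling. Cd274 had 0.45 in mature DCs and -1.38 in the few melanocytes of the sort (51 and 8 cells). Its neighbor Pdcd1lg2 had 0.46 in mature DCs and -0.82 in regulatory T cells. Cd80 had 0.51 in CD8 T cells and -0.64 in the macrophages of no further state.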

How the results depend on the processing

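Of 689 values under alternatives, 632 stayed within the counting interval of the value they repeat, 57 moved beyond it, and 0 of the members past 1.5-fold changed sign. The alternatives differed in this. With TMM factors, and with a pseudocount of 1 UMI, 0 of 52 values moved. Without cycling cells 15 of 54 moved, with graph clusters 12 of 48, and with the B cell level subtracted 8 of 24. In mature DCs, over the alternatives Cd274 ran from 0.35 to 0.51, Pdcd1lg2 from 0.35 to 0.51, and the PD-1 ligand share difference from 8.62 to 10.5 points. The sums moved as follows. With graph clusters in place of gates, which mix classes, the receptor log2 ratio was -0.12 in CD8 T cells and -0.36 in NK cells, and the ligand ratio -0.10 in macrophages and -0.17 in monocytes. Without cycling cells it was -0.11 in CD8 T cells, -0.10 in regulatory T cells and -0.032 for ligands in macrophages. As a mean over cells it was -0.059 in conventional CD4 T cells and -0.063 for macrophage ligands, which were at -0.048 after thinning. With the B cell level subtracted, an alternative chosen after seeing the data, it was 0.24 in CD8 T cells and -0.011 in NK cells. At 2-fold, 2 members passed instead of 4. The difference in CD8 T cells with at least 3 receptors was -0.581 points with graph clusters and -4.93 without cycling cells. The cause of these shifts was not tested. No paired analysis was possible because each genotype has 1 library, and no replicate could be left out. Graph clusters gave no value for conventional CD4 T cells, since no cluster took that class.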
